A study of Mus musculus with 17 samples.

Results

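Medium spiny neurons, the projection neurons of the nucleus accumbens (NAc), release peptides alongside GABA, and 4 precursor genes of these peptides were followed here in neuronal chromatin: Pdyn, Penk, Tac1 and Cartpt. The members were all peaks of 17 ATAC-seq libraries that overlapped the GENCODE body of these genes (mm10) extended by 20 kb on each side. Peaks from different libraries that overlapped by 1 bp or more were merged, and 25 of the 281189 merged regions on chromosomes 1 to 19 and X were members, with 362 of 2136179 peaks. Of these 25 regions, 13 were called in at least 2 libraries of 1 group (147420 regions in all), and 7 were called in all 17 libraries (36847 regions in all).

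ATAC-seq inserts sequencing adapters into open DNA with a transposase, so a peak marks a stretch of open chromatin. The nuclei were sorted for NeuN, a neuronal protein, from the NAc of C57BL/6 mice aged 52 to 54 days, and each library pooled 3 animals. Females in diestrus (the low-estrogenic stage), females in proestrus (the high-estrogenic stage) and males were either killed 1 h after an intraperitoneal injection of cocaine at 10 mg/kg or were controls that received no cocaine and stood for the baseline, so cocaine and the injection itself cannot be told apart. Each group had 3 libraries, except male cocaine with 2. For library 2 of diestrus cocaine, the stage came from its title, since its stage field held no value. Pooled nuclei of all neuron types do not tell whether more neurons or more open copies per neuron gave a higher signal.

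Pdyn encodes prodynorphin, the precursor of the dynorphins, which act on the kappa opioid receptor. Tac1 encodes the precursor of substance P and neurokinin A. Both peptides are known from the medium spiny neurons that carry the D1 dopamine receptor. Penk encodes proenkephalin, the precursor of the enkephalins, which act on the delta and mu opioid receptors and are known from the neurons that carry the D2 receptor. Cartpt encodes the precursor of the CART peptides, named for a transcript that psychostimulants regulate. Dynorphin is known to restrain dopamine release in the NAc. The cAMP response element (CRE), bound by CREB, and the AP-1 site, bound by Fos and Jun dimers, are the classic control elements of such activity-dependent genes.

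The promoter sequences are shown because the open regions at 3 of the genes lie over them, and because the genes differ in these elements. RefSeq entries on GRCm38.p6, which is the build of the files, were matched for 3 of the 4 members, and Penk had no entry. Each runs from 250 bases before to 50 bases after a RefSeq start, 5′ to 3′ on the strand of the gene. Capitals mark matches, on either strand, to 5 strings. The palindromic CRE was searched as TGACGTCA. Its core, TGACG, was also searched and lies within every CRE. The proenkephalin element, known from the enkephalin gene, was searched as TGCGTCA, and the core on the opposite strand overlaps it. The AP-1 string was TGANTCA, and the TATA box was TATAAA.
Pdyn, chr2:129699889-129700188, minus strand: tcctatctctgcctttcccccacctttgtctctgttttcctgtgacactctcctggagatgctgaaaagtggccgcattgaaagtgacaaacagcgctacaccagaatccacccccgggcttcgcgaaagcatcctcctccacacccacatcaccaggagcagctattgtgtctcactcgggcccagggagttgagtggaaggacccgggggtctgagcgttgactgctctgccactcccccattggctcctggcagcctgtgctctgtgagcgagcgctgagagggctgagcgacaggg
Tac1, chr6:7554811-7555110, plus strand: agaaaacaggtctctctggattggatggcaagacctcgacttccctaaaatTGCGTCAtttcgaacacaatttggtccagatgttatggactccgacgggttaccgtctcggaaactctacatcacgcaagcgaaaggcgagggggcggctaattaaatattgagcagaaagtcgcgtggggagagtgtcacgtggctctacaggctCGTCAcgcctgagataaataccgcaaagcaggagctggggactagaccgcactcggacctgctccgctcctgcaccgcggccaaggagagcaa
Cartpt, chr13:99900634-99900933, minus strand: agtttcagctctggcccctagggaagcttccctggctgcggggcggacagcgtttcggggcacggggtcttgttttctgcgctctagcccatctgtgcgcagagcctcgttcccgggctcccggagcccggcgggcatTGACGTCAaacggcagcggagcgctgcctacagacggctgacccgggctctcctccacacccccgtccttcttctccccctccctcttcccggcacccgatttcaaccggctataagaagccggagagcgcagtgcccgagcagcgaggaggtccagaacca

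The Cartpt promoter held TGACGTCA from position -112 relative to the RefSeq start, a string present in 1.79% of the 32851 RefSeq promoters. The Tac1 promoter held TGCGTCA from position -199 (2.12% of promoters) and a further TGACG, on the opposite strand, from position -43 (20.8% of promoters). The Pdyn promoter held none of the 5 strings, of which TGANTCA occurred in 7.81% and TATAAA in 13.6% of promoters. A second Pdyn entry around an internal start (chr2:129698609-129698908) also held none.

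Pdyn and Cartpt had stronger open regions upstream than at their starts, and the 201 bases around the strongest summit of those that differed between groups are shown on the strand of the gene with the same marking.
Pdyn upstream summit, chr2:129712959-129713159, minus strand: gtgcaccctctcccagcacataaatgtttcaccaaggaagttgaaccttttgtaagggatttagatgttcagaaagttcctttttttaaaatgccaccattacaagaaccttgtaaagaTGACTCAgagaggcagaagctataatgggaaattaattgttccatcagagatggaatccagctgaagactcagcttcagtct
Cartpt upstream summit, chr13:99913789-99913989, minus strand: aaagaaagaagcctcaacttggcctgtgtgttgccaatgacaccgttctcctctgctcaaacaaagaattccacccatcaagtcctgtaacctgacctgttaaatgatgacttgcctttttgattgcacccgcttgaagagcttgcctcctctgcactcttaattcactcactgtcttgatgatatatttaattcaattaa
The Pdyn window held an AP-1 string from 19 bases past its summit. Such a string occurred in 15.2% of the windows of the 36847 regions called in all libraries. The Cartpt window held none of the 5 strings. The window of the other upstream Cartpt region called in all libraries, not shown, held an AP-1 string from position -48 relative to its summit.

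Libraries held 75458 to 157005 peaks that covered 42.2 to 107 Mb, and the 2 male cocaine libraries were the lowest in both. Each peak carried a fold enrichment, the pileup at its summit over the background of its library, and this background was 6.26 to 9.55 reads deep. The median fold of the regions called in all libraries was 5.35 to 8.03, and before any centring the median log2 difference over these regions was -0.40 for cocaine in males and 0.25 for male minus female controls. The log2 fold of each library was therefore centred on that median before groups were compared with limma, and every difference is relative to that median unless stated. Diestrus cocaine library 1 shared fewer of its regions with the other diestrus cocaine libraries (0.497 of the regions called in either, on average) than with diestrus controls (0.573). Promoters of the 3 neuronal and 9 medium spiny neuron markers were called in all libraries, those of the 3 endothelial markers in none, and per library 0 to 1 of 4 astrocyte, 0 to 1 of 4 microglial, 0 to 1 of 4 interneuron and 1 to 4 of 4 oligodendrocyte markers were called. Promoters of cortical excitatory markers (4 genes) were called for 3 of the genes in each male control library, for 0 to 2 genes in diestrus, 1 to 2 in proestrus and 0 in male cocaine libraries.

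The whole Penk gene (chr4:4133531-4138819, minus strand, ENSMUSG00000045573) lay in a single merged region, chr4:4130697-4142737, that was open in every library. The start of the antisense transcript A830012C17Rik lies in the same region, and ATAC-seq does not tell them apart. In controls and males the region was a row of separate peaks, at the 5′ end, about 1.5 and 3 kb upstream, and around and past the 3′ end. The 5′ end and the site 3 kb upstream had a summit in all 17 libraries, with folds of 3.72 to 13.5 and 3.22 to 6.29. Diestrus cocaine libraries had 2 to 5 peaks there, and the widest spanned 4775 to 9771 bp. Proestrus cocaine libraries had 5 to 9 peaks, of which the widest spanned 3181 to 4996 bp, so the widths of the cocaine groups overlapped between stages. Diestrus controls had 9 to 14 peaks, of which the widest spanned 822 to 2160 bp. In males the widest peak was 607 to 1489 bp.

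**Figure D1:**
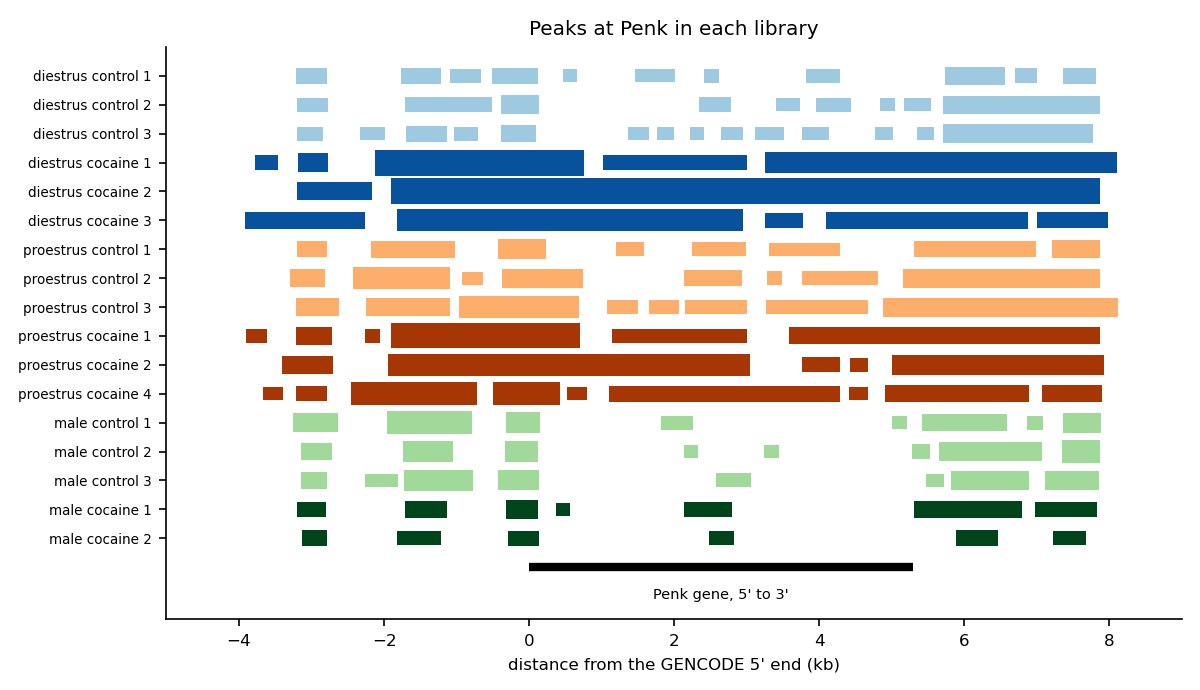
Peaks at Penk in each of the 17 libraries, plotted as distance from the GENCODE 5′ end in kb; bar height rises with fold enrichment up to 10, and the black bar is the gene. In diestrus cocaine libraries peaks spanned up to 9771 bp and covered at least 88.5% of the gene. In proestrus cocaine libraries they spanned up to 4996 bp and covered 77.3 to 85.8%, whereas in male libraries peaks covered at most 18.6%.

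Peaks covered 29.1, 32.9 and 40.6% of the Penk gene body in the diestrus controls and 90.3, 100 and 88.5% in the diestrus cocaine libraries. These groups did not overlap, with means of 34.2% ± 5.85 and 92.9% ± 6.18 (SD, n = 3 each). Cocaine libraries lay above all controls in diestrus for 11.4% of all gene bodies. In proestrus the controls had 44.3, 55.8 and 79.0% and the cocaine libraries 80.8, 77.3 and 85.8%, with overlap. Males had 15.2, 10.3 and 11.5% without cocaine and 18.6 and 9.08% after it. Every male library lay below every female library, as was the case for 0.342% of the 16397 genes with any covered body. Male controls lay below all female controls, as for 6.9% of genes, although male controls had the highest mean number of peaks of any group (144458). The difference between males and females, averaged over control and cocaine, was -2854 bp (exact permutation of sex within treatment, two-sided, p = 0.000425, the smallest that the design allows; adjusted p = 0.0294 over all genes, with 3.45% of genes past the threshold). This measure and this test were chosen after the values were seen. Per Mb covered in the library the difference was also called (adjusted p = 0.0148), but male cocaine and female libraries then overlapped. Cortical excitatory markers, given above, also differed between male controls and females, and their part in this difference was not tested.

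**Figure D2:**
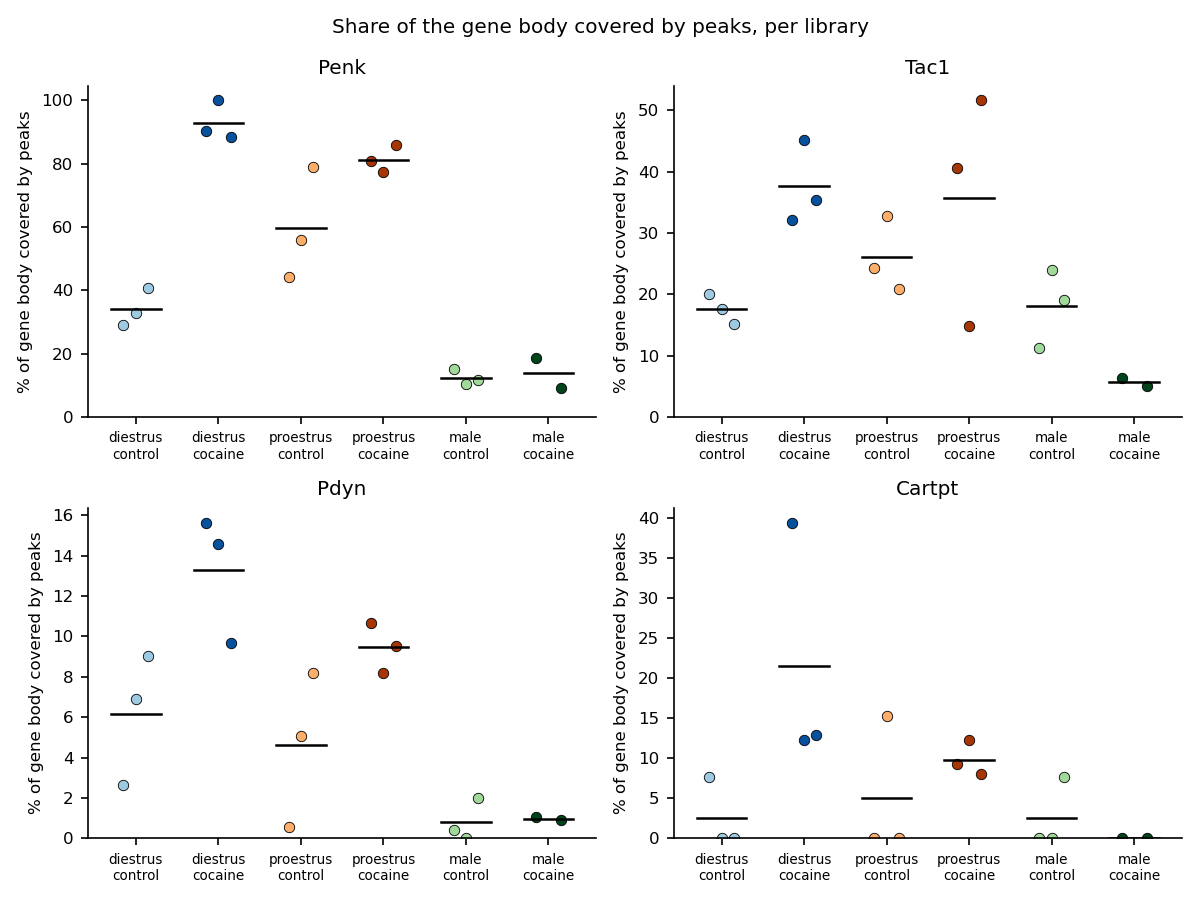
Share of each gene body covered by peaks, in %, for each library (points) and group mean (lines), by sex, stage and treatment. Every diestrus cocaine library lay above every diestrus control for all 4 genes (11.4% of all genes), and for Penk all male libraries (9.08 to 18.6%) lay below all female libraries.

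The strongest Penk peak rose in diestrus. Its fold enrichment was 5.03, 5.81 and 5.60 in diestrus controls and 10.4, 13.5 and 7.81 after cocaine, with no overlap. The means were 5.48 ± 0.40 and 10.6 ± 2.83 (SD, n = 3 each). The log2 difference was 0.90 (SE 0.16, adjusted p = 0.00191, limma over 36847 regions, 11.1% of which were called). Without diestrus cocaine library 1, which shared more regions with the controls, it was 1.00 (adjusted p = 5.7e-05). Calls rose over all regions in that setting, to 5443 higher and 4645 lower, from 2268 and 1807 with all libraries. Among the promoters of the 9 medium spiny neuron markers in diestrus, differences went both ways, with a median of 0.20. They ranged from -0.43 for Pde10a (limma, adjusted p = 0.0806) to 0.66 for the adenosine receptor Adora2a (adjusted p = 0.0116), with -0.02 for Drd2. Promoters of 0 to 1 of the 4 cortical markers were called in diestrus controls and 0 to 2 in diestrus cocaine libraries. The part of such markers in the Penk difference was not tested. In proestrus the folds were 6.76, 7.54 and 7.58 without and 9.41, 8.02 and 8.06 with cocaine, which again did not overlap, but the centred difference was only 0.11 (95% interval -0.20 to 0.43, adjusted p = 0.71, 3.4% of regions called). Male controls had 8.29, 7.71 and 7.03 and male cocaine libraries 6.01 and 4.30. Relative to the lower median of the male cocaine libraries, this was a difference of -0.11 (95% interval -0.46 to 0.25, adjusted p = 0.73). Without centring it was -0.59 and past the threshold (limma, adjusted p = 0.0363), where 12136 of the 36847 regions were called lower and 114 higher. The male effect was 0.61 lower than the mean female effect (SE 0.21, adjusted p = 0.0353, 18.4% of regions called). That call was lost without diestrus cocaine 2 (adjusted p = 0.0655), proestrus cocaine 1 (0.0554), male control 1 (0.0584), male control 2 (0.0872) or male cocaine 2 (0.299). The diestrus effect exceeded the proestrus effect by 0.78 (95% interval 0.34 to 1.23), a difference that did not pass the adjustment (adjusted p = 0.557, 0.00543% of regions called). Before cocaine, diestrus was 0.62 lower than proestrus (adjusted p = 0.0557, 0.318% of regions called). That difference passed without diestrus cocaine 1, diestrus cocaine 3 or proestrus cocaine 2 (adjusted p = 0.0241 to 0.0448).

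The strongest summit of the Penk region was not always at the promoter: it lay 6038 bp from the 5′ end in diestrus control 1 and at -1497 bp in male control 3, for example. At the summit within 500 bp of the 5′ end, a measure added after the values were seen, the folds were 4.39, 5.81 and 4.57 in diestrus controls and 10.4, 13.5 and 7.81 after cocaine. All diestrus cocaine libraries were above all diestrus controls. The difference was 0.94 (SE 0.17, adjusted p = 0.00125) among 9072 protein-coding genes with such a summit in every library, of which 25.3% were called in diestrus. In proestrus the folds at this summit, before centring, were 6.76, 5.80 and 7.58 without and 9.41, 8.02 and 8.06 with cocaine. These did not overlap either. However, the median fold of the regions called in all libraries was also higher in every proestrus cocaine library than in every proestrus control. With centring, limma called 0.022% of the 9072 genes at this summit in proestrus. The centred proestrus difference for Penk and the share of genes with such a separation are not given here. The male minus female effect at this summit was -0.88 (SE 0.22, adjusted p = 0.00725, 30.5% of genes called), and it was -0.59 and did not pass without male cocaine library 2 (adjusted p = 0.106).

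**Figure D3:**
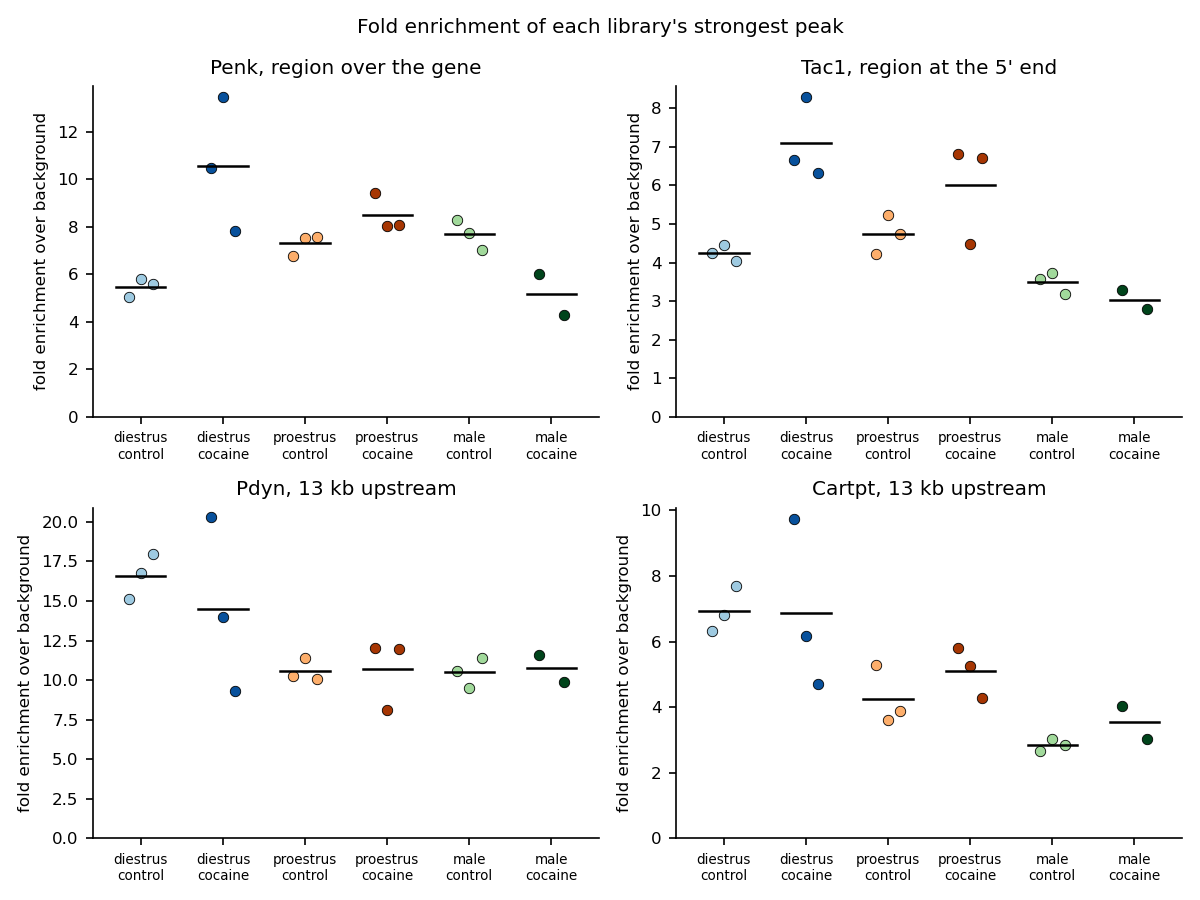
Fold enrichment of the strongest peak in each library (points) with group means (lines) for the Penk region, the Tac1 5′ region and the upstream regions of Pdyn and Cartpt, on linear axes from 0. Diestrus cocaine libraries lie above diestrus controls for Penk and Tac1, and the male controls (2.68 to 3.03) lie below all female libraries for Cartpt.

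Tac1 (chr6:7554879-7565834, plus strand, ENSMUSG00000061762) had 9 member regions, 2 of them open in all libraries. The region at the 5′ end (chr6:7554526-7557717) covers the promoter shown above, exons and coding sequence. Its fold was 4.26, 4.47 and 4.05 in diestrus controls and 6.65, 8.30 and 6.32 in diestrus cocaine libraries, which were all higher. The log2 difference of 0.71 (SE 0.18) passed the threshold (limma, adjusted p = 0.0107). With the mean of the peaks in the region in place of the strongest, it was 0.19 and did not pass (adjusted p = 0.557). Without diestrus control 3, diestrus cocaine 2 or diestrus cocaine 3 it was 0.62 to 0.66 and did not pass (adjusted p = 0.0649 to 0.0934). At the summit near the 5′ end it was 0.58 (SE 0.20, adjusted p = 0.0305), and this call was lost without diestrus control 2 or 3 or diestrus cocaine 2 or 3 (adjusted p = 0.0914 to 0.157). Proestrus controls had 4.22, 5.22 and 4.74 and proestrus cocaine libraries 6.81, 4.49 and 6.70, with library 2 inside the control range (difference 0.22, 95% interval -0.14 to 0.57, adjusted p = 0.49). Male controls had 3.57, 3.72 and 3.18 and male cocaine libraries 3.28 and 2.79. Relative to the median of each library, the male difference was 0.28 (95% interval -0.12 to 0.68, adjusted p = 0.37), and without centring it was negative (-0.20). Male controls were below female controls by 0.66 (SE 0.15, adjusted p = 0.00176, 24.9% of regions called), and by 0.68 at the summit near the 5′ end (adjusted p = 0.00743, 22.4% of genes called). Without centring, both were -0.36 and did not pass (adjusted p = 0.0867 and 0.0954).

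The other constant Tac1 region (chr6:7559187-7562415), with a median summit 6058 bp inside the gene, ranged from 3.02 to 6.41 and passed in no comparison. A neighbouring region, chr6:7562432-7563330 over an exon with untranslated sequence, was called in 3 of 3 diestrus cocaine libraries (folds 2.73, 3.77 and 2.99), in 1 proestrus cocaine library (2.72) and in 0 of the 9 controls. It was the only member region gained in diestrus by complete separation of 3 cocaine from 3 control libraries, a pattern of 1.16% of the 147420 regions. These peaks rested on 22 to 29 reads at the summit. With peaks of a -log10 q of at least 5, the region was called in only 1 library. Over all libraries, 4 of 8 cocaine against 0 of 9 control libraries gave p = 0.0294 (Fisher's exact test, two-sided, adjusted p = 0.321).

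The Tac1 gene body was covered to 20.04, 17.6 and 15.2% in diestrus controls and to 32.2, 45.2 and 35.4% in diestrus cocaine libraries. Proestrus cocaine libraries had 40.6, 14.8 and 51.6% against 24.3, 32.7 and 20.9% in their controls. Male cocaine libraries had 6.34 and 5.08%, below the controls at 11.2, 23.9 and 19.1%. Such a fall of the covered gene body occurred in 61.7% of all genes in males.

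**Figure D4:**
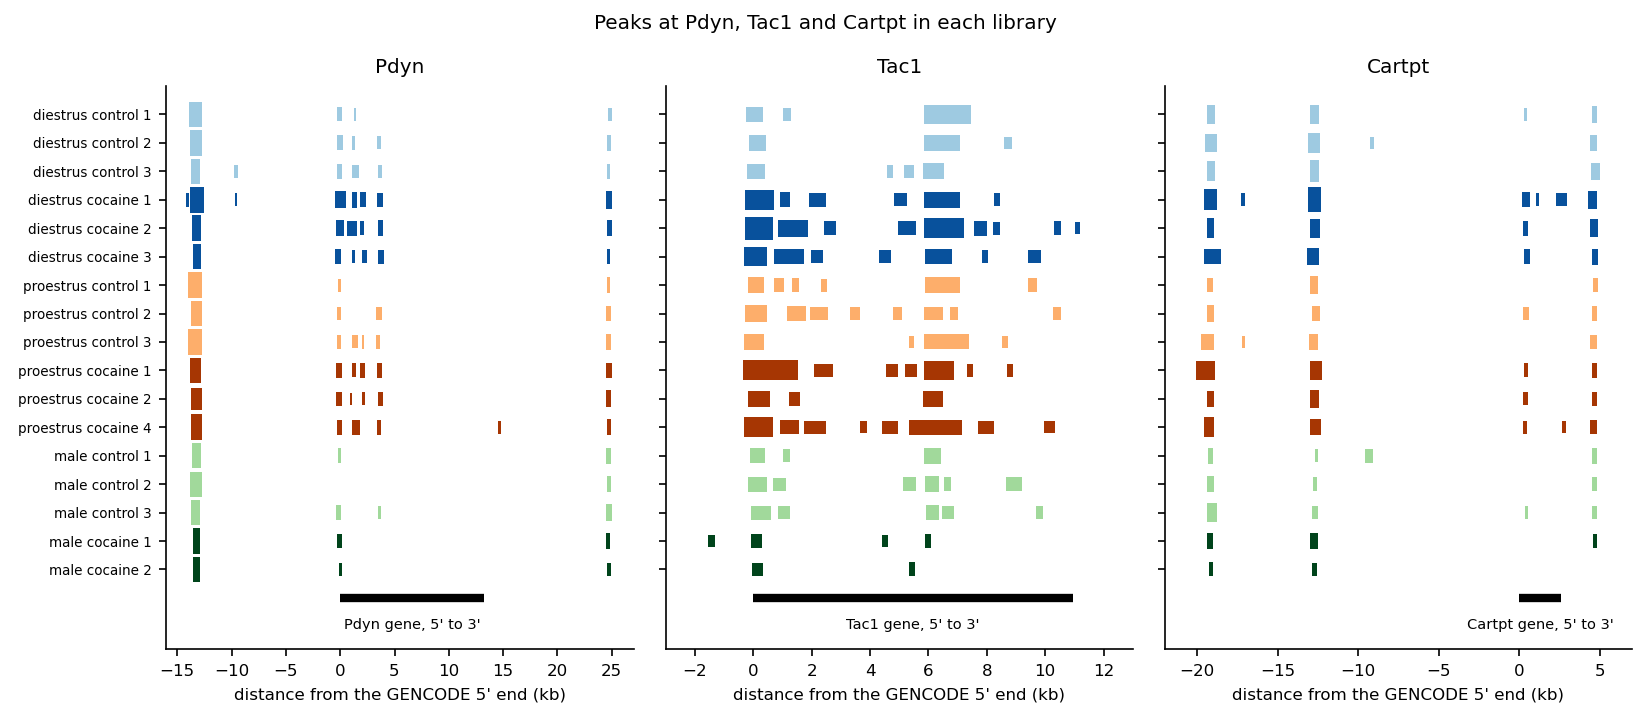
Peaks at Pdyn, Tac1 and Cartpt in each of the 17 libraries, plotted as distance from the GENCODE 5′ end in kb; bar height rises with fold enrichment up to 10, and black bars are the genes. The upstream Pdyn region was called in all libraries, whereas peaks inside Pdyn and at the Cartpt start were mostly those of female libraries.

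Pdyn (chr2:129686565-129699844, minus strand, ENSMUSG00000027400) had 7 member regions. The strongest was upstream (chr2:129712380-129714070), with its median summit at -13244 bp from the 5′ end (negative is upstream), outside any gene. It was also the strongest of all 25 member regions, above 79.8% of the regions called in all libraries by mean log2 fold. Its folds were 15.1, 16.7 and 17.95 in diestrus controls, 10.2, 11.4 and 10.0 in proestrus controls and 10.6, 9.50 and 11.4 in male controls. Before centring, diestrus controls stood above both other control groups, and the share of regions with this pattern is not given here. Relative to each library's median, male controls were below female controls by 0.63 (SE 0.13, limma, adjusted p = 0.000851, 24.9% of regions called). Diestrus minus proestrus controls was 0.44 (limma, adjusted p = 0.185, 0.318% of regions called). Without centring, the male difference was -0.34 and did not pass (adjusted p = 0.153).

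After cocaine the upstream Pdyn region had folds of 20.3, 13.96 and 9.30 in diestrus and 12.02, 8.13 and 11.9 in proestrus, which overlapped with the controls in both stages. The differences were -0.28 (adjusted p = 0.23) and -0.11 (adjusted p = 0.73). Male cocaine libraries had 11.6 and 9.88, the first just above and the second within the range of the male controls. As their median region was lower, the centred difference was 0.52 (SE 0.17, adjusted p = 0.0527), and the male effect exceeded the female effect by 0.71 (SE 0.21, adjusted p = 0.0163). Without centring that excess was 0.16 (adjusted p = 0.68). It was also lost without male control 2, male cocaine 1 or male cocaine 2 (adjusted p = 0.0516 to 0.119), and the male difference passed without diestrus cocaine 1 or 3 or proestrus cocaine 2 or 4 (adjusted p = 0.0213 to 0.0486).

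The Pdyn promoter was weaker. Its region (chr2:129699285-129700332) holds the promoter sequence above and was called in 16 libraries, male control 2 being the exception. Folds were 3.23, 3.80 and 3.63 in diestrus controls against 4.87, 4.03 and 3.91 after cocaine, and 2.64, 2.90 and 3.13 in proestrus controls against 4.11, 3.31 and 3.56. Before centring, cocaine libraries were higher than controls in both stages, and the share of regions with such a separation is not given here. Among the 42074 regions with at least 2 calls in every group, the differences were 0.24 and 0.23, with 95% intervals of -0.09 to 0.57 in diestrus and -0.10 to 0.56 in proestrus (adjusted p = 0.34 and 0.42). Males had 3.57 and 3.4 without and 3.17 and 2.91 with cocaine.

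Inside Pdyn, a region around the internal start (chr2:129697365-129699183) and an intronic region (chr2:129695849-129696543) were called in all 6 female cocaine libraries and neither male cocaine library, like the Cartpt start below. This was the case for 2.83% of regions. When every library was cut to its 75458 strongest peaks, 0 of these 3 regions showed that separation, and the internal start no longer separated diestrus from male controls as described next. The region around the internal start was also called in 3 of 3 diestrus controls and 0 of 3 male controls, as were 3.02% of regions. Fisher's exact test of 6 of 8 cocaine against 4 of 9 control libraries (internal start) and 6 of 8 against 5 of 9 (intron) gave adjusted p = 0.70 and 0.83. The Pdyn gene body was covered to 2.64, 6.88 and 9.02% in diestrus controls and to 15.6, 14.6 and 9.68% after cocaine, and to 0.572, 5.08 and 8.19% in proestrus controls and 10.7, 8.22 and 9.53% after cocaine. All cocaine libraries were above the controls of their stage, a pattern seen in diestrus for 11.4% of genes, in proestrus for 14.1% and in males for 1.32%. Males had 0.392, 0 and 2.00% without and 1.04 and 0.889% with cocaine. The male minus female difference of -997 bp was past the threshold (exact permutation, two-sided, p = 0.00085, adjusted p = 0.036), and the difference for Tac1 (-1897 bp, adjusted p = 0.0925) and Cartpt (-220.2 bp, adjusted p = 0.36) was not.

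Cartpt (chr13:99898489-99901091, minus strand, ENSMUSG00000021647) was the smallest of the genes. Its GENCODE 5′ end lay in no region, and the transcript start 450 bp inside, close to the RefSeq start of the promoter above, lay in a weak region (chr13:99900440-99900916). That region was called in 6 of 6 female cocaine libraries, with folds of 4.04, 3.90 and 3.45 in diestrus and 3.10, 2.46 and 2.51 in proestrus. It was called in 1 of 3 libraries of each control group (2.97, 2.90 and 2.52) and in 0 of 2 male cocaine libraries. Fisher's exact test of 6 of 8 against 3 of 9 libraries gave p = 0.153 (adjusted p = 0.51). With peaks of a -log10 q of at least 5, it was called in all 3 diestrus cocaine libraries and no diestrus control. The CRE string of the promoter lies inside this region. The Cartpt gene body was covered to 39.3, 12.2 and 12.9% in diestrus cocaine libraries against 7.68, 0 and 0% in their controls, with no overlap, and to 9.26, 12.2 and 8.03% in proestrus cocaine libraries against 0, 15.3 and 0%. In males, 1 control had 7.68% and the other 4 libraries 0.

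The largest difference between male and female controls among the 7 regions was upstream of Cartpt (chr13:99913364-99914245), with its median summit at -12765 bp from the 5′ end. Folds were 6.33, 6.81 and 7.68 in diestrus controls, 5.28, 3.60 and 3.89 in proestrus controls and 2.68, 3.03 and 2.85 in male controls. Before centring, male controls were below all female libraries, and the share of regions with this pattern is not given here. The centred log2 difference between male and female controls was -1.21 (SE 0.16, limma, adjusted p = 7.6e-07, 24.9% of regions called). It passed without centring too. Summit pileups in male controls were 20 to 25 reads, where the lowest member peak called had 18 reads, so a further fall could not have been seen among called peaks.

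After cocaine this Cartpt region had folds of 9.73, 6.16 and 4.71 in diestrus. Proestrus cocaine libraries had 5.81, 5.24 and 4.29, and male cocaine libraries 4.04 and 3.02. The female groups overlapped with their controls, and male cocaine library 2 overlapped with the male controls. The male difference was 0.78 after centring (SE 0.20, adjusted p = 0.0126, 9.56% of regions called) and 0.29 without (adjusted p = 0.34). The male minus female effect was 0.74 (SE 0.24, adjusted p = 0.0300) and 0.20 without centring (adjusted p = 0.62). Without male cocaine library 1 both calls were lost (adjusted p = 0.23 and 0.22). The second was also lost without diestrus cocaine 2, proestrus control 1, proestrus cocaine 4, male control 1 or male control 3 (adjusted p = 0.0503 to 0.0653). Among medium spiny neuron markers, limma called 3 of 9 promoters lower in male than in female controls (Drd1, Drd2 and Ppp1r1b). Over all regions, 24.9% were called in that comparison, in either direction. For Drd2 and Ppp1r1b the male effect of cocaine exceeded the female effect, by 1.03 and 0.75 (18.4% of all regions called). The part of these markers and of the cortical ones in the Pdyn and Cartpt differences was not tested.

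**Figure D5:**
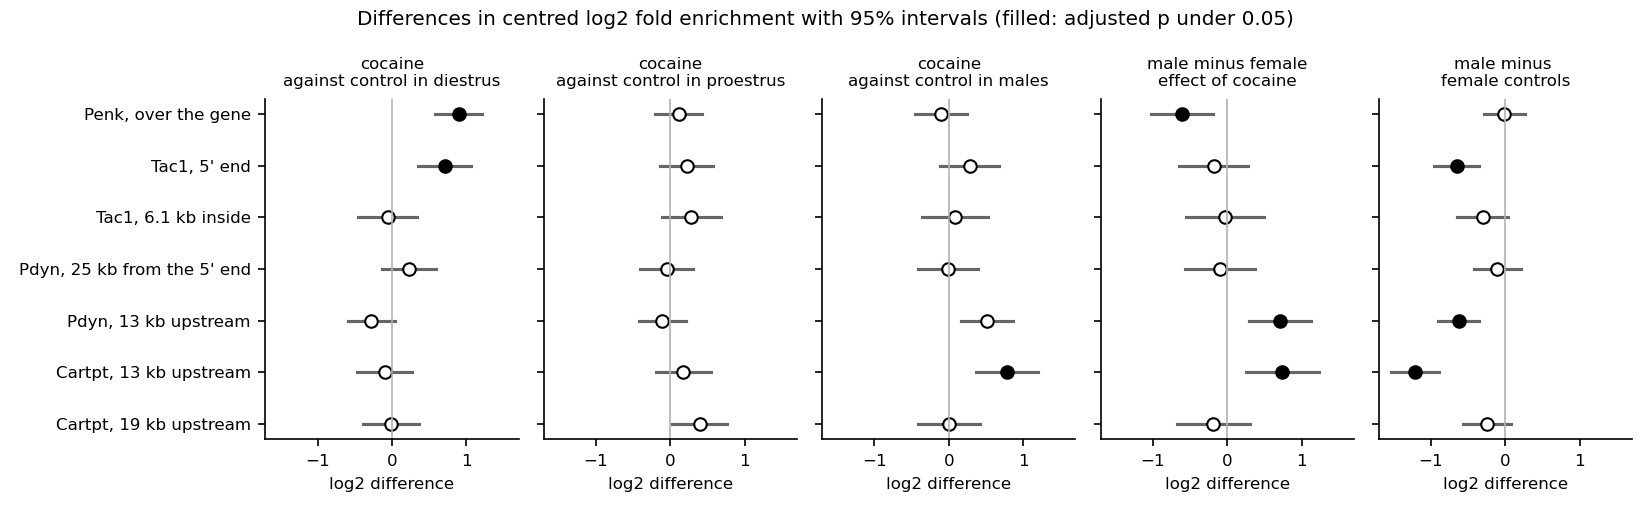
Log2 differences in centred fold enrichment (points) with 95% intervals (lines) for the 7 member regions called in all 17 libraries, by comparison; filled points have an adjusted p under 0.05 in limma. Penk and Tac1 are past the threshold in diestrus, none of the 7 in proestrus, and 3 regions are lower in male than in female controls.

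The remaining member regions are given by their ranges. The region downstream of Cartpt (chr13:99896090-99896846) was called in 16 libraries at folds of 2.75 to 5.66. The Cartpt region at -19156 bp ranged from 3.25 to 7.48, and the one 24710 bp past the 5′ end of Pdyn, beyond its 3′ end, from 2.67 to 5.34. Neither passed in any comparison. The member regions not among the 13 were called in 1 to 4 libraries, at folds of 2.09 to 3.27.

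Over the 7 regions called in all libraries, limma called 2 higher after cocaine in diestrus (11.1% of all regions were called in either direction), 0 in proestrus (3.4%) and 1 higher in males (9.56%). The median differences were -0.01, 0.17 and 0.09, against 0.01, -0.02 and 0.09 over all regions. In controls, 3 of the 7 (Tac1 at the 5′ end and the upstream regions of Pdyn and Cartpt) were lower in males (24.9% of all regions were called, 5318 of them lower in males), 1 of them, that of Cartpt, without centring as well, with a median of -0.30 against -0.04 over all regions. Of the calls, 0 of the 4 member regions that could be tested differed between cocaine and control libraries by Fisher's exact test, as did 0 (0.0%) of the 64304 regions tested. At an unadjusted p under 0.05, there was 1 of the 4, against 13% of the 64304. By complete separation no member region was lost in diestrus (1.26% of regions), gained (2.45%) or lost (1.64%) in proestrus, or gained (1.66%) or lost (16.8%) in males.

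Covered length over each gene with its 20-kb flanks was compared between cocaine and control libraries within the 3 strata. The differences averaged over the strata were 1801 bp for Penk, 474 bp for Pdyn, 710 bp for Tac1 and 347 bp for Cartpt. The median over all genes was -651 bp. The strata went opposite ways: each locus was higher after cocaine in diestrus and proestrus and lower in males. The male differences were -933 bp for Penk, -258 bp for Pdyn, -1303 bp for Tac1 and -374 bp for Cartpt. Exact permutation within strata (two-sided) gave p = 0.0348, 0.108, 0.272 and 0.255 and adjusted p = 0.0923, 0.20, 0.40 and 0.38. Of 18877 genes, 42.6% had an unadjusted p under 0.05, 19.1% passed after adjustment and 80.4% had a negative difference. For the gene bodies alone the difference was 1442 bp for Penk (exact permutation, p = 0.00575) and 537 bp for Pdyn (p = 0.00725), with adjusted p = 0.0662 and 0.0687 by exact permutation. With all libraries, 32.8% of all gene bodies had an unadjusted p under 0.05 and 0.0% passed after adjustment. Without diestrus cocaine 1, Penk and Pdyn both passed (adjusted p = 0.0248 and 0.0436), as did 5507 of the 16351 gene bodies tested in that setting. Their unadjusted p by exact permutation was then 0.006 and 0.014, no lower than with all libraries. Expressed per Mb covered in the library, Pdyn, Penk and Cartpt loci passed (exact permutation, adjusted p = 0.0170, 0.0170 and 0.0302). Tac1 did not (0.23), and 15.6% of all loci were past the threshold. Male cocaine libraries covered 50.7 and 42.2 Mb, against 80.9 to 97.2 Mb in male controls.

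The genes whose promoter regions followed Penk and Tac1 most closely over the 17 libraries were ranked by Pearson's r of the centred log2 fold among 9633 other promoter regions called in every library. They were Foxp2 (r = 0.90), Stk32a (0.89) and Lrrn3 (0.87) for Penk. For Tac1 they were Gm11146 (0.90), the region shared by 3110070M22Rik and Tmem267 (0.88) and Sgk3 (0.87). Penk and Tac1 had r = 0.78 with each other. These are descriptions over libraries that share groups.

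The peptides act through receptors and are cut from their precursors by convertases, and 13 such genes were listed. Promoters of 7 of the 13 were called in all libraries: the opioid receptors Oprk1, Oprd1 and Oprl1, the convertases Pcsk1 and Pcsk2, the convertase inhibitor Pcsk1n and carboxypeptidase E, Cpe. The tachykinin receptor Tacr1, which binds substance P, was called in 16 libraries and Tacr3 in 6. The mu receptor Oprm1 was called in the 3 male controls and in 0 of the other 14 libraries. These male controls are the libraries with 3 cortical markers, whose part was not tested. Of 147420 regions, 9.05% were called in every male control and no diestrus control, and 10.5% in every male control and no proestrus control. In males 16.8% were lost after cocaine. The share with the full Oprm1 pattern is not given here. Tacr2 was called in 1 library, and the precursors Pomc and Pnoc in none. Of the 7 tested, 1 was higher after cocaine in diestrus, where 11.1% of all regions were called. This was Oprk1, the receptor of dynorphin (0.60, SE 0.18, limma, adjusted p = 0.0276). None was called in proestrus (3.4% of all regions) or males (9.56%). Of the 7, only Pcsk1 was called for male minus female controls (0.47, adjusted p = 0.0148, 24.9% of all regions called). Its male effect of cocaine was lower than the female effect (-0.70, adjusted p = 0.0250, 18.4% of all regions called). The median of the 7 was 0.25 in diestrus, 0.00317 in proestrus and 0.19 in males, against 0.01, -0.02 and 0.09 over all regions.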

How the data were processed

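Open chromatin of NeuN-positive NAc nuclei was profiled in 17 ATAC-seq libraries. Reads were aligned to mm10 by the authors (BWA-MEM), and MACS2 gave a peak list per library, whose version and options are not given in the sources used here. The deposited values of a peak are a fold enrichment (ratio) over background, −log10 p and q values and a score. The authors tested read counts with DESeq2, which was not run here, as no counts were used. The authors removed Y, mitochondrial and blacklisted peaks later; the files before that step were used, on chromosomes 1 to 19 and X.

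Groups came from the labels. Fold enrichments were whole multiples of 1 step per library (100% of values), which gave summit reads and the background pileup. A region without a peak may hold reads, and counts only as uncalled at this depth.

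Peaks overlapping by 1 bp or more were merged. Regions called in 4 to 13 libraries and kept by the rule of 2 libraries of 1 group were tested with Fisher's exact test (two-sided). Separation of 3 against 3 or 3 against 2 libraries cannot reach p below 0.1 and had no test. The highest log2 fold of regions called in every library, centred on the library median, was compared with limma 3.58.1 (trend, 6 group means) in R 4.3.3. Covered lengths of 21755 protein-coding genes were compared with exact permutation within strata. All p-values were adjusted over all features tested (Benjamini-Hochberg, threshold 0.05) and measure the spread between pools of 3 animals. Python 3.11.15 with scipy 1.17.1 was used. Steps were tested on simulated data.

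Genes came from GENCODE vM21 on GRCm38; distances are from the GENCODE 5′ end. Promoter sequences of 4 RefSeq entries were identical to the genome. Named were all members, the region at each 5′ end, up to 3 further regions called in every library, regions past a threshold, the 3 most similar promoters, and list genes. Members and lists were chosen with earlier results of these data known. Alternatives were other peak thresholds, scalings, flanks of 50 kb, a replicate block and leaving out each library. The summit near the 5′ end, the gene body alone, males against females in the gene body, and the separation of control groups and of female from male cocaine libraries were added after seeing the data. The result of 1 marker gene is not reported here.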

Additional observations from a re-analysis of the deposited data

Results flagged for a closer look

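The effect of cocaine differed between males and females, by the test of the difference itself (limma), for 3 of the 7 member regions called in all libraries: -0.61 on the log2 scale for the Penk region (adjusted p = 0.0353), 0.71 for the upstream Pdyn region (adjusted p = 0.0163) and 0.74 for the upstream Cartpt region (adjusted p = 0.0300). Over all regions, 18.4% were called. With the mean of the peaks 0 of the 7 passed, and each of the 3 calls was lost without some single libraries, named beside the results. All 3 are relative to the median of each library. The median was lower in male cocaine libraries, and without centring the Penk difference was -1.16 (adjusted p = 0.000979) while those of Pdyn and Cartpt were 0.16 and 0.20 and were not called. Without centring, 13838 of the 36847 regions were called lower and 176 higher, with a median difference of -0.48 over all regions. Male cocaine rests on 2 libraries.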

How the results depend on the processing

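Fold differences of the member regions were recomputed without centring, with quantile normalization, with the mean in place of the strongest peak, with regions called in 2 libraries of every group, with a replicate block and without each library in turn. Penk in diestrus kept its call in all of these (0.76 to 1.00, adjusted p up to 0.0392, without single libraries). Tac1 in diestrus was 0.19 and lost its call with the mean of the peaks, and ranged from 0.62 to 0.86 without single libraries. Penk turned to -0.034 in proestrus and 0.019 in males with the mean of the peaks. In males Penk was -0.59 and past the threshold without centring and ranged from -0.32 to 0.11 without single libraries, the positive value coming without male cocaine library 2. Tac1 in males turned to -0.20 without centring. The cause of these changes was not tested.

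Of the 7 regions, the number past the threshold was 1 in diestrus, 0 in males and 0 for the male minus female effect with the mean of the peaks. It was 0 in males and 1 for diestrus minus proestrus controls with quantile normalization, and 1 for male minus female controls without centring. Without single libraries it ranged from 1 to 3 in diestrus, 0 to 2 in males, 1 to 3 for the male minus female effect and 0 to 1 for diestrus minus proestrus controls. Over all regions, 58.2% of the calls in males and 64.5% of those for the male minus female effect were higher; without centring these shares were 0.931% and 1.26%, and with quantile normalization 41.2% and 49.8%.

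Member regions gained in diestrus numbered 2 with stronger peaks (-log10 q of at least 5), 2 with peaks over at least 50% of the region and 2 with flanks of 50 kb, and 1 to 2 without single libraries. In males 1 was gained with equal numbers of peaks, and 1 was lost with stronger peaks. With flanks of 50 kb, which widen the set of regions, 5 were lost in males. Without single libraries, 0 to 1 were gained in proestrus and 0 to 1 lost in males. Shares over all regions were taken only with the main calls of all libraries, which the 50-kb flanks also use. They were 1.16% gained in diestrus, 2.45% gained in proestrus, and 1.66% gained and 16.8% lost in males. Covered length per Mb of the library passed the threshold at Pdyn (12.09 bp), Penk (40.51 bp) and Cartpt (8.136 bp), while the number of Penk peaks fell by 3.389 (exact permutation, adjusted p = 0.0468).

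Same-numbered libraries did not deviate together (r from -0.29 to 0.20), and not every library correlated best with its own number, so the numbers are no pairing. With the number as a replicate block, Penk in diestrus remained at 0.90 (adjusted p = 0.00233). The male minus female effect at the Cartpt region was 0.68 and no longer passed (adjusted p = 0.0577), the block changed no other call of a named region, and in proestrus 94 regions were called higher and 144 lower, in place of 571 and 681.

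Peaks record only chromatin that passed a caller, in 2 or 3 pools per group, so weak sites of shallow libraries go uncounted.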
